A study of Mus musculus with 18 samples.

Results

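The comparison set the intestine of 2 wildtype mice, WT.1476 and WT.1477 in the labels, against the testes of the same 2 mice, across all genes. The 4 libraries were taken by their labels out of 18 RNA-seq libraries of a series on inducible lysine-to-methionine mutants of histone H3, and none of the 4 comes from a mutant. All 4 were labelled wildtype and C57B6/129 hybrid. The labels give the mice of the study as 6 to 8 weeks old and say that induction was by 2 mg/ml doxycycline in the drinking water, and which transgenes the wildtype mice carried is not given in the sources used here. The intestinal samples were dissociated intestinal cells, with no segment of gut named, and the testes samples were dissociated testes cells. Of 37620 gene IDs in the count files, 18754 passed the filter on low counts and were tested.

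The intestinal epithelium is renewed from stem cells in the crypts, and its daughter cells become absorptive enterocytes or secretory goblet, Paneth, enteroendocrine and tuft cells. The testis is a mixture of germ cells at every stage, from spermatogonia through meiotic spermatocytes to round and elongating spermatids, together with the Sertoli cells that nurse them and the Leydig cells that make testosterone. During meiosis the sex chromosomes are silenced, and later spermatids exchange most histones for transition proteins and then protamines. The germ line also has its own copies of several glycolytic, mitochondrial and ribosomal genes, many of them derived from X-linked genes.

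Values below are CPM, counts scaled to a fixed library total, after TMM scaling, a correction for differences in RNA composition. They are given for mouse WT.1476 first and mouse WT.1477 second unless said otherwise. CPM is not corrected for gene length and orders a gene across libraries, not genes against each other. A difference is the log2 of intestine over testes, with its standard error, so negative values are higher in testes. The standard error is the size of the difference over the square root of the F statistic of the test below. Where the lower tissue had few counts it can lie below the counting error, as for Dpy19l2 with 4 intestinal counts (± 0.19). A gene was called at a Benjamini-Hochberg adjusted p under 0.05 in edgeR's quasi-likelihood test with 2 libraries a tissue. The mice are separate animals by the labels. Where leaving out 1 library moved the difference of a called gene by more than 1.5-fold or ended its call, the value without that library follows, with the libraries named as in the labels (intestine.WT.1476 is the intestinal library of mouse WT.1476). In whole tissue, fewer cells of a type and less RNA per cell cannot be told apart.

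Gene counts per library ran from 15471650 to 20577418. Testes had more genes at 1 CPM or more, 16509 and 16547 against 12559 and 11764 in intestine, and the 10 leading genes took 3.02% and 3.11% of testes counts and 7.73% and 8.03% of intestinal counts. The testes libraries were alike, with a median absolute log2 difference of 0.11 between the mice and 259 of 18754 genes (1.38%) over 2-fold apart. The intestinal libraries were less alike, at 0.27 and 2987 genes (15.9%), of which 2494 were higher in mouse WT.1476. Of 69 acrosome, spermatid chromatin and flagellum genes with at least 50 CPM in testes, the median level in intestine, without TMM scaling, was 0.922% of that in the testes of the same mouse for mouse WT.1476 and 0.0664% for mouse WT.1477. In the intestine of the 4 mutant mice the same median lay between 0.0722% and 0.266%. In the other direction, 48 intestinal genes reached a median of 0.101% and 0.0675% in the testes of the 2 wildtype mice and at most 0.154% in those of the mutants. How testis transcripts came into the intestinal library of mouse WT.1476 was not tested. Called genes whose difference this library moved by more than 1.5-fold, and the medians of several lists, are given with and without it. The counts of genes called or found over all genes include it.

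**Figure D1:**
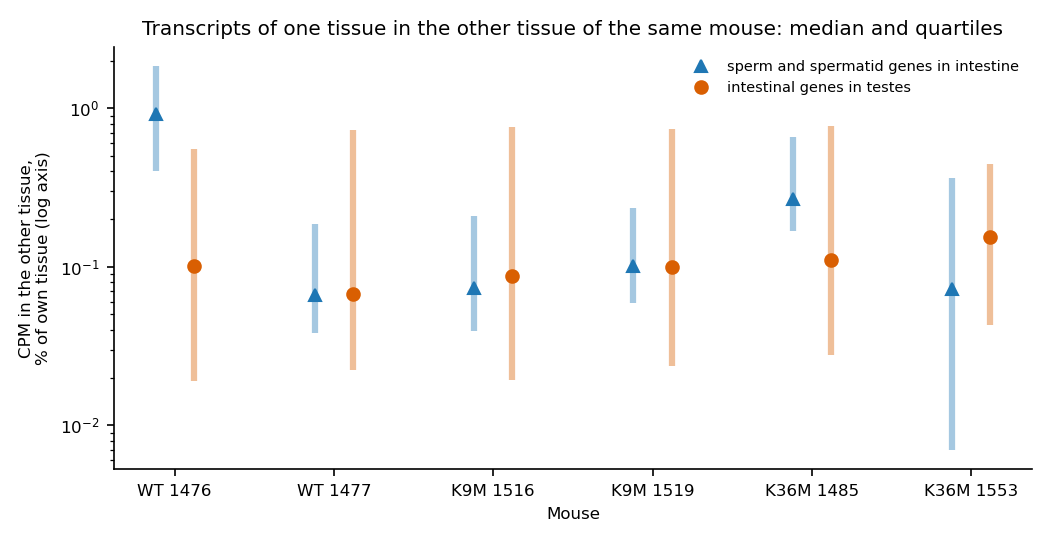
Median (marker) and quartiles (bar) of the level of 69 sperm and spermatid genes in intestine (triangles) and of 48 intestinal genes in testes (circles), as a percentage of the CPM in their own tissue of the same mouse, on a log axis, for the 6 mice that gave both tissues. The triangle of mouse WT.1476, at 0.922%, stands above those of the other 5 mice, the highest of which is 0.266%.

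Intestine and testes differed at most genes measured. In all, 16392 of 18754 tested genes were called, a background of 87.4%, with 7151 (38.1%) higher in intestine and 9241 (49.3%) higher in testes. These shares of 38.1% and 49.3% are the background for every count of a gene list below. At least 2-fold differences were called in 6132 genes toward intestine and 8468 toward testes, together 77.9% of those tested, and differences of at least 64-fold in 960 and 3232. For 17787 genes (94.8%) both libraries of one tissue lay above both of the other. The direction of a small difference depends on the scaling: the median over all tested genes was -0.55 with TMM, and 5517 genes were called toward intestine and 10832 toward testes with library size alone. Without testes.WT.1476 or testes.WT.1477, 13387 and 13342 genes were called, of which 13384 and 13338 were shared with the main calls, all in the same direction.

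Testes also used a wider set of genes. At 1 CPM or more in both libraries, 11544 genes were found in intestine and 16127 in testes, of which 1217 were found at that level only in intestine and 5800 only in testes. Among long noncoding RNA genes, 238 reached 1 CPM in both intestinal libraries and 1004 in both testes libraries. Of the 1370 long noncoding genes tested, 75% were higher in testes and 15.1% higher in intestine, compared with 45.8% and 41.8% of 15776 protein-coding genes.

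**Figure D2:**
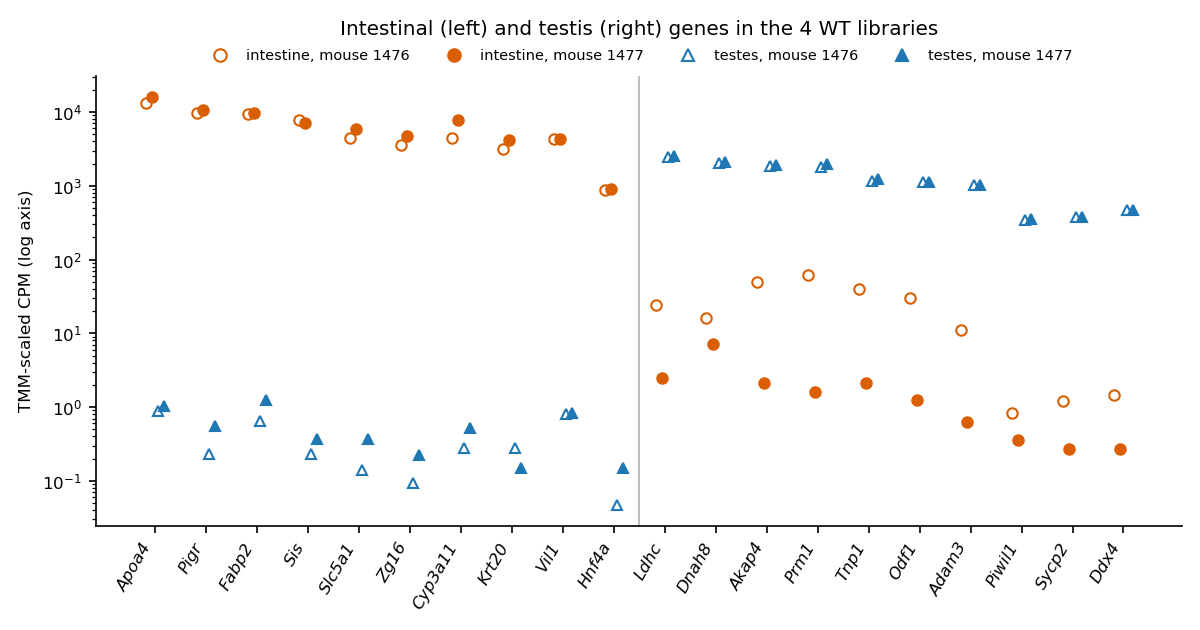
TMM-scaled CPM on a log axis of 10 intestinal genes (left) and 10 testis genes (right) in each of the 4 libraries, with circles for intestine, triangles for testes, open symbols for mouse WT.1476 and filled symbols for mouse WT.1477. The testes values of the intestinal genes lie near or below 1 CPM in both mice, while the testis genes in intestine are higher in mouse WT.1476 than in mouse WT.1477, as for Prm1 at 60.9 and 1.61 CPM.

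Among the highest CPM values in intestine were genes of dietary fat handling and of antibody transport. Apoa4, an apolipoprotein of chylomicrons, was at 13338 and 16187 CPM in the intestinal libraries and 0.89 and 1.05 CPM in the testes libraries (log2 difference 13.88 ± 0.24, adjusted p = 1.64e-05). Apoa1, another apolipoprotein, was at 11696 and 12720.0 CPM in intestine and 0.656 and 0.933 CPM in testes (13.88 ± 0.28). Pigr, which carries IgA across the epithelium into the gut, was at 9723 and 10814 CPM in intestine and 0.234 and 0.56 CPM in testes (14.60 ± 0.50), and the difference was 15.37 without testes.WT.1477. In all 3 genes the testes values lay near or below 1 CPM. Several genes had no count in testes, so only a lower bound of their difference can be given. Clrn3, a clarin family membrane protein gene, had 460.3 and 616 CPM in intestine and was at least 8430-fold higher there, taking 3 counts over both testes libraries as the floor. Hsd17b6, a hydroxysteroid dehydrogenase, was at least 6280-fold higher at 327 and 480.3 CPM, and Slc5a12, a lactate transporter of the apical membrane, at least 6270-fold higher at 437 and 327 CPM.

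Among the highest CPM values in testes were those of germ cell genes. Ldhc, the lactate dehydrogenase of sperm, had 24.1 and 2.51 CPM in the intestinal libraries and 2483 and 2562 CPM in the testes libraries (log2 difference -7.55 ± 1.32, adjusted p = 0.00594), and the difference was -10.21 without intestine.WT.1476 and -6.69 without intestine.WT.1477 and it was not called without either testes library (adjusted p = 0.0769 and 0.0769). Fhl4, a testis LIM domain gene, had 33.6 and 2.24 CPM in intestine and 2448 and 2488 CPM in testes (-7.09 ± 1.51), and the difference was -10.34 without intestine.WT.1476 and -6.18 without intestine.WT.1477 and it was not called without either testes library (adjusted p = 0.106 and 0.105). Atp8b3, a phospholipid flippase of the acrosome, had 27 and 1.34 CPM in intestine and 2117 and 2131 CPM in testes (-7.21 ± 1.60), and the difference was -10.86 without intestine.WT.1476 and -6.28 without intestine.WT.1477 and it was not called without either testes library (adjusted p = 0.115 and 0.114) or with the mouse as a block (adjusted p = 0.0529). The 2 testes libraries agreed closely in all 3 genes, and the spread came from intestine. Lars2, the mitochondrial leucyl-tRNA synthetase and the highest testes value of all named genes, was also present in intestine, at 587 and 654 CPM in intestine and 3034 and 3453 CPM in testes (-2.39 ± 0.14). Genes of the mitochondrial genome held 0% of the gene counts in each library, and the origin of the reads counted at Lars2 was not tested. Several testis genes had no count in either intestinal library. Pbp2, of the phosphatidylethanolamine-binding family, had 75.2 and 77.7 CPM in testes and was at least 681-fold higher there. Ptchd3, a patched-domain gene of sperm, was at least 561-fold higher at 64 and 62.3 CPM. Spam1, a sperm hyaluronidase, was at least 540-fold higher at 61.9 and 59.7 CPM.

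Digestive enzymes of the enterocyte brush border had the highest median difference of the intestinal lists. All 19 members were tested and all 19 were called higher in intestine, against a background of 38.1%, with a median difference of 10.96 where the median of all tested genes was -0.55. The stretches just before the transcription starts of 3 brush border and fat absorption genes that were high in both intestinal libraries are shown because each holds a motif of an intestinal transcription factor whose gene is described further on. They run 5′ to 3′ over the 150 bases before the start, from RefSeq on GRCm38.p6, a later build than the mm9 of the counts. Capitals mark TTTATNG, a CDX2-type site, and CAAAGTCCA, an HNF4A-type site, searched on both strands, and no 2 matches overlap here.
Sis, chr3:72967864-72968013 on the minus strand: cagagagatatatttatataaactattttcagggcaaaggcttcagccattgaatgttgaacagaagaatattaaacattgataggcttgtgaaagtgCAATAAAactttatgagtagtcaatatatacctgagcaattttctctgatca
Fabp2, chr3:122894922-122895071 on the plus strand: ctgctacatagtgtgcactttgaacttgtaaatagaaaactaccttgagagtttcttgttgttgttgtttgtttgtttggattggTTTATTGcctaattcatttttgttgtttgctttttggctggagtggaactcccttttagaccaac
Alpi, chr1:87101607-87101756 on the minus strand: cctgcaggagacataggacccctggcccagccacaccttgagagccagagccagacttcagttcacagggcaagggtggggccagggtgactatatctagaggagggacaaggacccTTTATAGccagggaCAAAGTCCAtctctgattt
The TTTATNG letters stand once in each, and CAAAGTCCA once in that of Alpi alone. Among all 32851 promoters of 300 bases in the RefSeq table, 10.9% hold the first motif and 0.475% the second, so that a match describes letters and not a site in use.

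Sis, the sucrase-isomaltase of the brush border, was at 7767 and 7079.5 CPM in the intestinal libraries and 0.234 and 0.373 CPM in the testes libraries (log2 difference 14.52 ± 0.30, adjusted p = 1.64e-05). Alpi, the intestinal alkaline phosphatase, was at 3401 and 7830.1 CPM in intestine and 2.58 and 2.58 CPM in testes (11.09 ± 0.64), and the difference was 10.38 without intestine.WT.1477. Its 2 intestinal libraries were further apart than those of Sis, with mouse WT.1477 the higher. Anpep, aminopeptidase N, was at 9161 and 7058 CPM in intestine and 1.08 and 1.16 CPM in testes (12.81 ± 0.26), and Lct, the lactase of milk digestion, at 4303 and 4579 CPM in intestine and 2.44 and 2.02 CPM in testes (10.96 ± 0.20). Vil1, villin of the microvillus core, was at 4295 and 4267 CPM in intestine and 0.796 and 0.821 CPM in testes (12.36 ± 0.17), close to equal in the mice. Ace, angiotensin-converting enzyme, stood apart from the other members in its testes level, 3671 and 3045 CPM in intestine and 487 and 502 CPM in testes (2.76 ± 0.14). Ace has a somatic form and a shorter germ cell form made from an internal promoter, and the gene counts do not separate them. An antisense gene shares 295 exon bases with Ace, and whether counting used the strand is not given in the sources used here.

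Of 21 tested genes of fat absorption, 20 were higher in intestine and 1, Scarb1, was not called, with a list median of 8.64. A further member, Fabp6, stayed below the filter. Apob, the scaffold of chylomicrons, was at 10848 and 11380.0 CPM in the intestinal libraries and 2.2 and 1.57 CPM in the testes libraries (log2 difference 12.53 ± 0.28, adjusted p = 1.64e-05). Fabp2, the intestinal fatty acid-binding protein, was at 9337 and 9705 CPM in intestine and 0.656 and 1.23 CPM in testes (13.27 ± 0.42). The lipoprotein receptor gene Scarb1 had 39 and 118 CPM in intestine and 108 and 100.1 CPM in testes (-0.41 ± 0.55, adjusted p = 0.512), and the libraries of the tissues overlapped. Its difference was -0.06 without intestine.WT.1476 and -1.4 without intestine.WT.1477.

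Nutrient and ion transporters were higher in intestine in 18 of 22 cases, with a median of 8.13, and Slc10a2, the ileal bile acid transporter, was the 1 member higher in testes. Slc5a1, the sodium-glucose cotransporter, was at 4479 and 5820.2 CPM in the intestinal libraries and 0.141 and 0.373 CPM in the testes libraries (log2 difference 14.21 ± 0.52, adjusted p = 2.43e-05), and 3 counts remained in testes without testes.WT.1477. Slc6a19, a neutral amino acid transporter, was at 1738 and 2194 CPM in intestine and 0.234 and 0.336 CPM in testes (12.70 ± 0.30), and Slc15a1, the peptide transporter, at 869.7 and 853 CPM in intestine and 0.984 and 1.46 CPM in testes (9.45 ± 0.27). Slc2a5, the fructose transporter of both gut and sperm, was about as high in the testes, with 669 and 815 CPM in intestine and 592 and 601 CPM in testes (0.31 ± 0.14, adjusted p = 0.09), and its sign depended on the scaling: it was -0.48 with library size alone and -0.12 with upper-quartile scaling. The iron genes of the list separated the 2 intestines. Slc40a1, ferroportin, was at 61.4 and 571 CPM in intestine and 2.53 and 1.98 CPM in testes (7.13 ± 1.41), and the difference was 7.76 without intestine.WT.1476 and 4.80 without intestine.WT.1477 and it was not called without either testes library (adjusted p = 0.134 and 0.141) or with the mouse as a block (adjusted p = 0.0539). Cybrd1, the duodenal ferric reductase, was at 3.74 and 50.3 CPM in intestine and 4.22 and 4.44 CPM in testes (2.61 ± 1.25, adjusted p = 0.115), with the intestinal library of mouse WT.1476 below both testes libraries and that of mouse WT.1477 far above, and the difference was -0.20 without intestine.WT.1477. Fth1, ferritin heavy chain, was likewise higher in the intestine of mouse WT.1477, at 6373 and 12689 CPM in intestine and 92.3 and 103 CPM in testes (6.61 ± 0.44).

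Markers of gut regions were mixed. Of 8 genes of the proximal small intestine, 7 were higher in intestine and Cybrd1 was not called, with a median of 9.05, or 8.22 with the gene lacking counts in testes at its bound. Pdx1, the duodenal homeobox factor, had 24 and 60.6 CPM in intestine and no count in testes, at least 630-fold higher. The bound was 384-fold without intestine.WT.1477 and 972-fold without intestine.WT.1476. For the distal small intestine 3 of 5 tested members were higher in intestine and 1 higher in testes, and for the large intestine 3 of 7 and 2 of 7. Over all tested genes the shares were 38.1% and 49.3%. Without intestine.WT.1477 the large intestine count was 5, and without either testes library 1. Which segments each sample held was not tested.

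Intestinal transcription factors were higher in intestine in 24 of 25 cases, with a median of 7.29. Hnf4a, a nuclear receptor of enterocytes and liver, was at 887 and 910.1 CPM in the intestinal libraries and 0.0468 and 0.149 CPM in the testes libraries (log2 difference 13 ± 0.38, adjusted p = 1.65e-05), and 1 count remained in testes without testes.WT.1477. Its relative Hnf4g was at 1243 and 1407 CPM in intestine with 2 counts in testes, a ratio of 31600 with a counting interval of 8740 to 261000. The caudal homeobox genes Cdx1 and Cdx2 set intestinal identity. Cdx1 was at 88.2 and 75.2 CPM with no count in testes, at least 1330-fold higher. Cdx2 was at 180.2 and 140.5 CPM with 1 count in testes, a ratio of 7870 with a counting interval of 1410 to 311000. Isx, a homeobox gene of vitamin A metabolism, was at 160.1 and 147 CPM with no count in testes, at least 2480-fold higher. All of these were present in both intestinal libraries at similar levels.

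Goblet cells make the mucus layer, and all 18 tested members of their list were higher in intestine, with a median of 9.70, or 8.11 with 3 genes lacking testes counts at their bound. Fcgbp, a mucus protein, was at 6137 and 6424 CPM in the intestinal libraries and 1.69 and 0.821 CPM in the testes libraries (log2 difference 12.30 ± 0.48, adjusted p = 2.85e-05), and the difference was 12.89 without testes.WT.1476. Zg16, a lectin of the mucus, was at 3564 and 4748 CPM in intestine and 0.0937 and 0.224 CPM in testes (14.57 ± 0.45), and 2 counts remained in testes without testes.WT.1477. Muc2, the gel-forming mucin, was at 1294 and 1570.4 CPM in intestine and 1.31 and 1.42 CPM in testes (10.03 ± 0.22). Tff3, the trefoil peptide, was at 1172 and 1471 CPM in intestine with 2 counts in testes, a ratio of 31200 with a counting interval of 8640 to 258000. Among Paneth cell and antimicrobial genes, 15 of 17 tested members were higher in intestine and Lyz2 and Saa1 were higher in testes, while 5 others stayed below the filter. The list median was 9.01, or 8.40 with 1 gene at its bound. The lectins Reg1 and Reg3b were at 2619.9 and 5053 CPM and at 691 and 611 CPM in intestine. Their testes counts were 4 and 3, too few for a stable fold, and for Reg3b they gave a ratio of 10600 with a counting interval of 3610 to 51200. The 2 lysozyme genes went opposite ways. Lyz1, the Paneth cell lysozyme, was at 63.7 and 52.7 CPM in intestine and 0.141 and 0.0746 CPM in testes (9.04 ± 0.28), and Lyz2, the lysozyme of macrophages, at 1.67 and 2.15 CPM in intestine and 11 and 12 CPM in testes (-2.60 ± 0.22). The 2 are close copies, whose reads could be missing from both counts where they aligned to both, or be assigned to the wrong one.

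Hormone genes of enteroendocrine cells were higher in intestine in 14 of 19 tested members, with a median of 6.22, or 4.79 with 4 genes at their bound. Chga, a granin of secretory granules, was at 62 and 57.9 CPM in the intestinal libraries and 4.54 and 5.37 CPM in the testes libraries (log2 difference 3.59 ± 0.15, adjusted p = 2.76e-05). Chgb, a second granin, was at 101.9 and 83.6 CPM in intestine and 4.31 and 5.11 CPM in testes (4.29 ± 0.18), and Gip, the incretin hormone of the upper gut, at 117 and 140 CPM in intestine and 1.31 and 1.19 CPM in testes (6.67 ± 0.18). Both mice had these hormones at near-equal levels. Tuft cell genes were higher in intestine in 10 of 14 tested members and higher in testes in 2, with a median of 1.64. Their marker Dclk1 was at 26.7 and 28 CPM in intestine and 11.4 and 11.3 CPM in testes (1.27 ± 0.13), with both testes libraries below both intestinal ones.

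Genes of the crypt stem cell list divided between the tissues, with 7 of 18 tested members higher in intestine and 8 higher in testes, for a median of -0.29, or -1.21 without intestine.WT.1476. The second count was 5 without either testes library. These shares lay near the 38.1% and 49.3% of all tested genes. Olfm4, a marker of crypt base cells, was at 147 and 52.5 CPM in intestine with 1 count in testes, a ratio of 5170 with a counting interval of 928 to 204000. The ratio was 2530 without intestine.WT.1476 and 7070 without intestine.WT.1477. Lgr5, the Wnt agonist receptor of crypt stem cells, was low in both tissues, at 0.58 and 1.08 CPM in intestine and 5.06 and 6.27 CPM in testes, and was called higher in testes (-2.82 ± 0.35). Prom1, prominin, was at 56.3 and 34.8 CPM in intestine and 161 and 166 CPM in testes (-1.84 ± 0.25), and the difference was -2.48 without intestine.WT.1476. Msi1, an RNA-binding protein, was at 2.83 and 2.42 CPM in intestine and 42.7 and 42.7 CPM in testes (-4.01 ± 0.15). Sox9, which Sertoli cells also express, was among the members higher in testes.

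Epithelial junction and keratin genes were higher in intestine in 23 of 23 cases, with a median of 6.64. Cdh17, liver-intestine cadherin, was at 2405 and 2832 CPM in the intestinal libraries and 0.843 and 0.56 CPM in the testes libraries (log2 difference 11.87 ± 0.31, adjusted p = 1.65e-05). Krt20, the keratin of differentiated villus cells, was at 3154 and 4152 CPM in intestine and 0.281 and 0.149 CPM in testes (14.04 ± 0.40), and Krt8, a keratin of simple epithelia, at 2610.5 and 2592 CPM in intestine and 3.94 and 4.22 CPM in testes (9.31 ± 0.16). Drug and xenobiotic metabolism went the same way, with 26 of 26 higher in intestine and a median of 10.57. Cyp3a11, the main drug-oxidising cytochrome of liver and gut, was at 4383 and 7875 CPM in intestine and 0.281 and 0.523 CPM in testes (13.85 ± 0.61). Cyp3a13 was at 2802 and 4635 CPM in intestine and 0.281 and 0.0746 CPM in testes (14.37 ± 0.72), and the difference was 13.65 without testes.WT.1477 and 2 counts remained in testes without testes.WT.1476. Both cytochromes were higher in the intestine of mouse WT.1477 than in that of mouse WT.1476.

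T and NK cell genes were mostly higher in intestine, and B cell and macrophage genes were divided between the organs. Of 19 T and NK cell genes, 15 were higher in intestine, against a background of 38.1%, with a median of 5.84, or 5.24 with 2 genes at their bound. Gzma, a granzyme, was at 237 and 236 CPM in the intestinal libraries and 0.187 and 0.149 CPM in the testes libraries (log2 difference 10.42 ± 0.18, adjusted p = 1.64e-05). Cd8a, the CD8 coreceptor of intraepithelial T cells, was at 42.2 and 56.2 CPM in intestine with no count in testes, at least 771-fold higher. Of 8 B and plasma cell genes, 4 were higher in intestine (2 without either testes library) and 3 higher in testes. The macrophage and MHC class II list had 9 of 16 higher in intestine (4 without either testes library) and 6 higher in testes. The class II genes H2-Aa, H2-Ab1, H2-Eb1, Cd74 and Ciita were among the 9. Cd74, the invariant chain, was at 458 and 143 CPM in intestine and 6.18 and 5.86 CPM in testes (5.64 ± 0.72), and the difference was 4.33 without intestine.WT.1476 and 6.27 without intestine.WT.1477 and it was not called without either testes library (adjusted p = 0.0603 and 0.061). H2-Ab1, a class II beta chain, was at 259 and 70.1 CPM in intestine and 4.22 and 4.59 CPM in testes (5.22 ± 0.80), and the difference was 3.75 without intestine.WT.1476 and 5.89 without intestine.WT.1477 and it was not called without either testes library (adjusted p = 0.0914 and 0.0878). Both class II genes were more than 3-fold higher in the intestine of mouse WT.1476 than in that of mouse WT.1477. Mrc1, the mannose receptor of resident macrophages, was higher in testes, at 3.16 and 2.42 CPM in intestine and 32.1 and 35.3 CPM in testes (-3.58 ± 0.19).

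Fibroblast and endothelial genes were mostly higher in testes. Of 12 fibroblast and matrix genes, 11 were higher in testes, against a background of 49.3%, with a median of -3.52, or -6.73 without intestine.WT.1476. Dcn, decorin, was at 2.06 and 0.269 CPM in the intestinal libraries and 23.7 and 23.6 CPM in the testes libraries (log2 difference -4.21 ± 0.56, adjusted p = 0.00153), and the difference was -3.50 without intestine.WT.1477 and 3 counts remained in intestine without intestine.WT.1476. Vim, vimentin, was at 4.64 and 4.3 CPM in intestine and 35.8 and 37 CPM in testes (-3.02 ± 0.14). Smooth muscle and peritubular genes were higher in testes in 7 of 12 cases and higher in intestine in 3, a testes share near the background. Their median was -3.47, or -5.05 without intestine.WT.1476. Actg2, the enteric smooth muscle actin, was at 4.06 and 0.0896 CPM in intestine and 195 and 203 CPM in testes (-6.45 ± 0.95), and the difference was -5.60 without intestine.WT.1477, 1 count remained in intestine without intestine.WT.1476 and it was not called without either testes library (adjusted p = 0.0924 and 0.0921). Acta2, the actin of peritubular and vascular muscle, was at 1.55 and 0.269 CPM in intestine and 26.6 and 27.7 CPM in testes (-4.77 ± 0.48), and the difference was -4.11 without intestine.WT.1477 and 3 counts remained in intestine without intestine.WT.1476. Mylk, myosin light chain kinase, was higher in intestine at 476 and 525 CPM in intestine and 47.7 and 48.6 CPM in testes (3.38 ± 0.13). Endothelial genes were higher in testes in 7 of 10 tested members, with a median of -3.22, or -5.37 without intestine.WT.1476. Both muscle actins were near 0 in the intestine of mouse WT.1477. Markers of pancreas (4 of 16 tested), epididymis (3 of 13) and red blood cells (4 of 10) mostly stayed below the filter, with summed levels of at most 27.4 CPM for pancreas, 7.41 for epididymis and 20.6 for red blood cells in any library. Of 11 liver markers 6 were tested, 3 higher in each tissue, with sums of 719 and 496 CPM in intestine and 55.7 and 51.6 CPM in testes. Most of the intestinal sum was Cps1, an enzyme of ammonia handling that enterocytes also make, at 707 and 486 CPM.

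**Figure D3:**
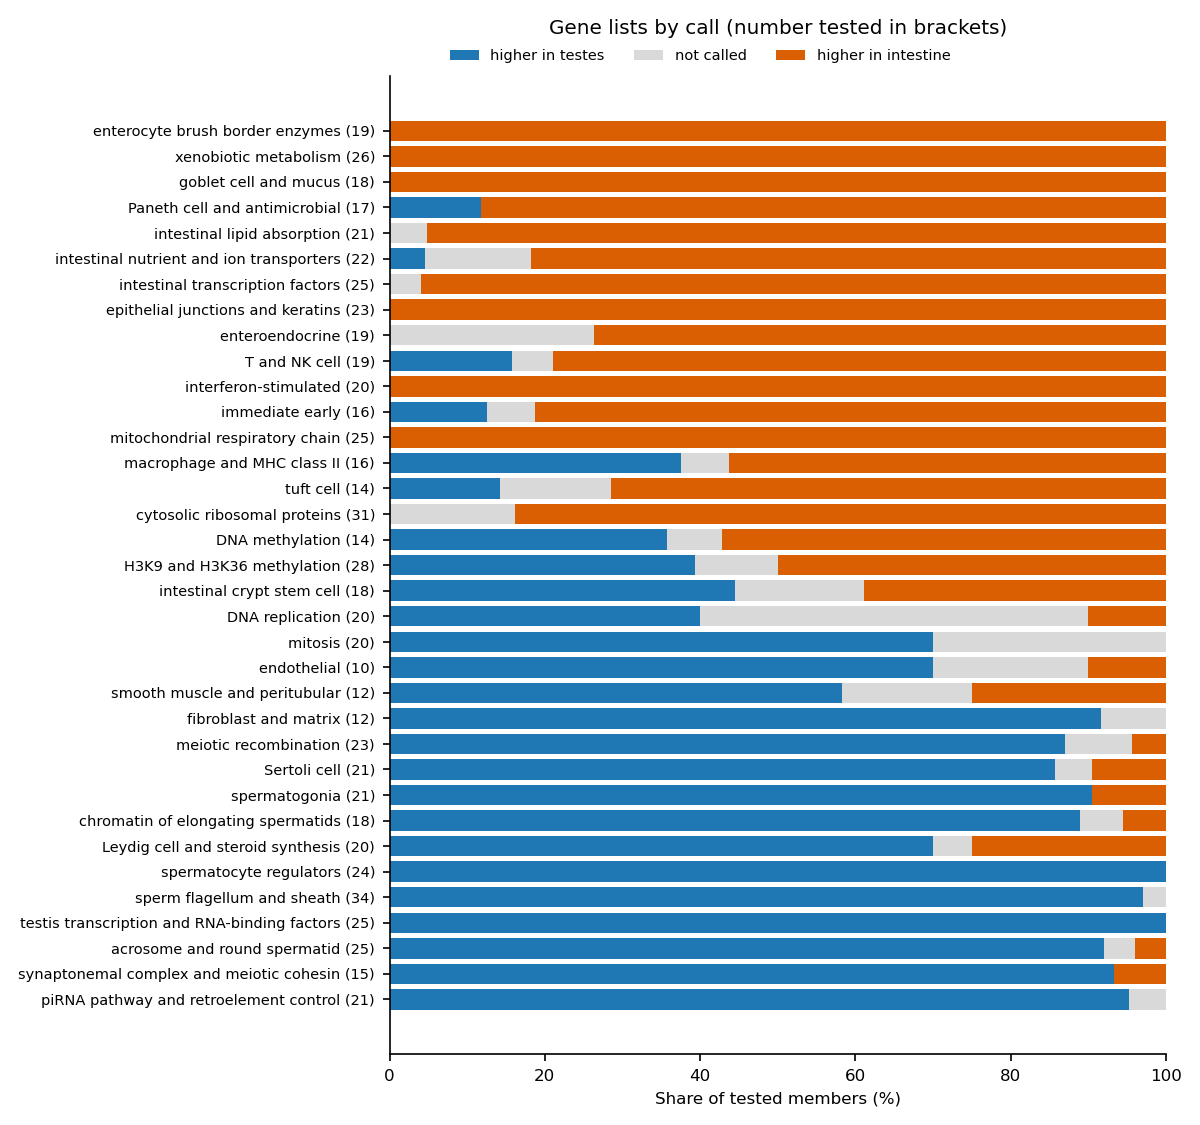
Share of the tested members of each gene list called higher in testes (blue), not called (grey) or called higher in intestine (orange), with the number tested in brackets. Brush border, xenobiotic, goblet and junction lists lie wholly toward intestine and spermatocyte regulators and testis transcription factors wholly toward testes, against 38.1% and 49.3% over all tested genes.

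Protamines and transition proteins, which replace histones in the elongating spermatid, were high in testes and unequal in the 2 intestines. Of 18 tested genes of spermatid chromatin, 16 were higher in testes, against a background of 49.3%, but 7 without either testes library. The list median was -5.78, or -5.50 with 2 genes lacking intestinal counts at their bound, -9.46 without intestine.WT.1476 and -4.84 without intestine.WT.1477. Prm1, a protamine, was at 60.9 and 1.61 CPM in the intestinal libraries and 1784 and 1947 CPM in the testes libraries (log2 difference -5.89 ± 1.79, adjusted p = 0.0346), and the difference was -10.41 without intestine.WT.1476 and -4.92 without intestine.WT.1477 and it was not called without either testes library (adjusted p = 0.183 and 0.186) or with the mouse as a block (adjusted p = 0.0946). Prm2 was at 92.6 and 2.87 CPM in intestine and 1886 and 1926 CPM in testes (-5.31 ± 1.73), and the difference was -9.62 without intestine.WT.1476 and -4.35 without intestine.WT.1477 and it was not called without either testes library (adjusted p = 0.202 and 0.203) or with the mouse as a block (adjusted p = 0.0985). Tnp1, a transition protein, was at 40.4 and 2.15 CPM in intestine and 1166 and 1247 CPM in testes (-5.81 ± 1.51), and the difference was -9.37 without intestine.WT.1476 and -4.88 without intestine.WT.1477 and it was not called without either testes library (adjusted p = 0.146 and 0.148) or with the mouse as a block (adjusted p = 0.0701). Tnp2 was at 60.7 and 2.69 CPM in intestine and 1694 and 1742 CPM in testes (-5.75 ± 1.61), and the difference was -9.56 without intestine.WT.1476 and -4.81 without intestine.WT.1477 and it was not called without either testes library (adjusted p = 0.162 and 0.163) or with the mouse as a block (adjusted p = 0.0767). In all 4 genes the testes libraries lay together and the intestinal libraries far apart, both of them below both testes libraries. Brdt, the testis bromodomain protein that acts in histone removal, was low in both intestines, at 1.93 and 1.16 CPM in intestine and 303 and 303 CPM in testes (-7.57 ± 0.25), and the difference was -8.26 without intestine.WT.1476. One member went the other way: Hist1h2bc, an H2B gene of the chromosome 13 histone cluster, was at 174 and 226 CPM in intestine and 2.9 and 2.76 CPM in testes (6.14 ± 0.20).

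Flagellum genes were higher in testes in 33 of 34 cases, 15 without either testes library, with a median of -6.85 that became -10.06 without intestine.WT.1476 and -6.02 without intestine.WT.1477. Odf1, of the outer dense fibres, was at 30.5 and 1.25 CPM in the intestinal libraries and 1113 and 1112 CPM in the testes libraries (log2 difference -6.12 ± 1.59, adjusted p = 0.0214), and the difference was -10.03 without intestine.WT.1476 and -5.18 without intestine.WT.1477 and it was not called without either testes library (adjusted p = 0.149 and 0.148) or with the mouse as a block (adjusted p = 0.0696). Odf2, also expressed at centrosomes of other cells, was at 82.9 and 23.1 CPM in intestine and 2289 and 2290.0 CPM in testes (-5.43 ± 0.76), and the difference was -6.87 without intestine.WT.1476 and -4.77 without intestine.WT.1477. Akap4, the X-linked scaffold of the fibrous sheath, was at 50.4 and 2.15 CPM in intestine and 1867 and 1896 CPM in testes (-6.15 ± 1.64), and the difference was -10.01 without intestine.WT.1476 and -5.21 without intestine.WT.1477 and it was not called without either testes library (adjusted p = 0.151 and 0.151) or with the mouse as a block (adjusted p = 0.071). Dnah8, an axonemal dynein heavy chain, was at 16.2 and 7.17 CPM in intestine and 2052 and 2132 CPM in testes (-7.47 ± 0.51), and the difference was -8.43 without intestine.WT.1476. Gpx4, a glutathione peroxidase with a sperm form and a somatic form, was the 1 member not called, at 401 and 426 CPM in intestine and 505 and 505 CPM in testes (-0.29 ± 0.11, adjusted p = 0.0612), and the counts do not separate its forms.

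The acrosome list was higher in testes in 23 of 25 cases, with a median of -7.43, or -8.94 without intestine.WT.1476. Acr, the acrosomal protease acrosin, was at 0.837 and 0.0896 CPM in the intestinal libraries and 154 and 155 CPM in the testes libraries (log2 difference -8.20 ± 0.44, adjusted p = 5.8e-05), and the difference was -7.50 without intestine.WT.1477 and 1 count remained in intestine without intestine.WT.1476. Acrv1, an acrosomal membrane protein gene, was at 1.03 and 0.179 CPM in intestine and 157 and 164 CPM in testes (-7.90 ± 0.41), and the difference was -7.26 without intestine.WT.1477 and 2 counts remained in intestine without intestine.WT.1476. Dpy19l2, which anchors the acrosome to the nucleus, was nearly absent from both intestines, at 0.129 and 0.179 CPM in intestine and 235 and 233 CPM in testes (-10.54 ± 0.19). Of the other members, Gopc was not called, and Ace, described above, was higher in intestine.

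Meiotic genes were nearly all higher in testes. The synaptonemal complex and cohesin list had 14 of 15 tested members higher there, with a median of -7.69, or -6.76 with 1 gene at its bound. Sycp2, an axial element protein, was at 1.22 and 0.269 CPM in the intestinal libraries and 382 and 379 CPM in the testes libraries (log2 difference -8.88 ± 0.54, adjusted p = 0.000111), and the difference was -8.26 without intestine.WT.1477 and 3 counts remained in intestine without intestine.WT.1476. Sycp3, its partner, was at 1.93 and 2.87 CPM in intestine and 48.6 and 49.2 CPM in testes (-4.38 ± 0.20), and it shares 660 exon bases on the opposite strand with Chpt1. Rec8, the meiotic kleisin of cohesin, went against the list, at 133 and 153 CPM in intestine and 59.6 and 62.3 CPM in testes (1.23 ± 0.12), with both intestinal libraries about 2-fold over both testes libraries. Among recombination genes, 20 of 23 tested members were higher in testes, with a median of -5.48, or -4.69 with 2 genes at their bound. Spo11, which makes the double-strand breaks, was at 0.451 and 0.717 CPM in intestine and 66.2 and 70.8 CPM in testes (-6.91 ± 0.21). Meioc, needed to keep cells in meiotic prophase, was at 0.58 and 0.269 CPM in intestine and 160.4 and 166 CPM in testes (-8.49 ± 0.24), and 3 counts remained in intestine without intestine.WT.1476. Tex15, needed for repair of breaks and for retroelement silencing, was at 1.09 and 0 CPM in intestine and 192 and 196 CPM in testes (-8.26 ± 0.68), and the difference was -7.44 without intestine.WT.1477 and no count remained in intestine without intestine.WT.1476. Prdm9, the histone H3 methyltransferase that places recombination hotspots, was higher in intestine, at 18 and 24.2 CPM in intestine and 5.48 and 6.05 CPM in testes (1.86 ± 0.21). Neither Rec8 nor Prdm9 shares exon bases with another annotated gene.

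The piRNA pathway silences retroelements in germ cells, and 20 of its 21 genes were higher in testes, with a median of -7.98, or -7.81 with 1 gene at its bound, -9.49 without intestine.WT.1476 and -7.24 without intestine.WT.1477. Piwil1, the PIWI protein of pachytene piRNAs, was at 0.837 and 0.358 CPM in the intestinal libraries and 346 and 354 CPM in the testes libraries (log2 difference -9.11 ± 0.32, adjusted p = 2.21e-05), and the difference was -10.14 without intestine.WT.1476. Tdrd6, a tudor protein of the chromatoid body, was at 1.61 and 0.269 CPM in intestine and 932 and 908 CPM in testes (-9.84 ± 0.78), and the difference was -9.14 without intestine.WT.1477 and 3 counts remained in intestine without intestine.WT.1476. Mael, maelstrom, was at 6.83 and 0.627 CPM in intestine and 946 and 997 CPM in testes (-7.98 ± 1.21), and the difference was -10.82 without intestine.WT.1476 and -7.14 without intestine.WT.1477 and it was not called without either testes library (adjusted p = 0.0657 and 0.066). Ddx4, the vasa helicase that marks all germ cells, was at 1.48 and 0.269 CPM in intestine and 466 and 475 CPM in testes (-8.96 ± 0.65), and the difference was -8.29 without intestine.WT.1477 and 3 counts remained in intestine without intestine.WT.1476. Each of the 4 had a higher value in the intestine of mouse WT.1476 than of mouse WT.1477.

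All 24 spermatocyte regulators were higher in testes, with a median of -6.61, or -7.57 without intestine.WT.1476 and -5.83 without intestine.WT.1477. Hspa2, the heat shock protein of pachytene spermatocytes, was at 4.31 and 1.52 CPM in the intestinal libraries and 820.3 and 816 CPM in the testes libraries (log2 difference -8.10 ± 0.58, adjusted p = 0.000221), and the difference was -9.31 without intestine.WT.1476. Adam3, a sperm surface protein gene transcribed from spermatocytes on, was at 11.1 and 0.627 CPM in intestine and 1029.5 and 1036 CPM in testes (-7.42 ± 1.42), and the difference was -10.91 without intestine.WT.1476 and -6.52 without intestine.WT.1477 and it was not called without either testes library (adjusted p = 0.0953 and 0.0946). All 25 transcription and RNA-binding factors of the testis were higher there too, with a median of -6.89, or -8.96 without intestine.WT.1476. Mybl1, the transcription factor of pachytene genes, was at 1.35 and 0.448 CPM in intestine and 94.5 and 97.7 CPM in testes (-6.63 ± 0.32), and the difference was -7.96 without intestine.WT.1476. Rfx2, a factor of spermatid ciliary genes, was at 6.44 and 3.4 CPM in intestine and 350.4 and 342 CPM in testes (-6.11 ± 0.34), and the difference was -6.91 without intestine.WT.1476. Crem, the activator of many spermatid genes, is also used in somatic cells and had 10.8 and 12.6 CPM in intestine and 180.5 and 171 CPM in testes (-3.91 ± 0.13). Ybx2, which stores translationally silent messages, was at 16.4 and 2.15 CPM in intestine and 899 and 918 CPM in testes (-6.59 ± 1.12), and the difference was -8.96 without intestine.WT.1476 and -5.77 without intestine.WT.1477 and it was not called without either testes library (adjusted p = 0.0763 and 0.0762).

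Genes of early germ cells were also mostly higher in testes. Of 21 tested spermatogonial genes, 19 were higher in testes and Ret and Ccnd2 were higher in intestine, with a median of -5.65, or -4.53 with 6 genes at their bound, and -6.91 without intestine.WT.1476. Dmrtb1, which controls the entry into meiosis, was at 1.35 and 0.179 CPM in the intestinal libraries and 325 and 329 CPM in the testes libraries (log2 difference -8.60 ± 0.64, adjusted p = 0.000278), and the difference was -7.90 without intestine.WT.1477 and 2 counts remained in intestine without intestine.WT.1476. Dazl, a germ cell RNA-binding protein, was at 0.451 and 0 CPM in intestine and 126 and 123 CPM in testes (-8.86 ± 0.45), and the difference was -8.07 without intestine.WT.1477 and no count remained in intestine without intestine.WT.1476. Sall4, a factor of undifferentiated spermatogonia, had 3 and 3.1 CPM in testes and no count in intestine, at least 27.2-fold higher. Ccnd2, a cyclin of spermatogonia and of other dividing cells, was at 103 and 47.2 CPM in intestine and 6.42 and 6.57 CPM in testes (3.53 ± 0.44), and the difference was 2.62 without intestine.WT.1476.

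Genes of the somatic cells of the testis were mostly higher in testes. Of 21 tested Sertoli cell genes, 18 were higher in testes, with a median of -5.52, or -7.43 without intestine.WT.1476 and -4.82 without intestine.WT.1477. Clu, clusterin, was at 19.4 and 1.34 CPM in the intestinal libraries and 505 and 532 CPM in the testes libraries (log2 difference -5.62 ± 1.30, adjusted p = 0.0149), and the difference was -8.83 without intestine.WT.1476 and -4.72 without intestine.WT.1477 and it was not called without either testes library (adjusted p = 0.129 and 0.131) or with the mouse as a block (adjusted p = 0.06). Amhr2, the receptor of anti-Müllerian hormone, was at 4.57 and 0.985 CPM in intestine and 111 and 117 CPM in testes (-5.26 ± 0.55), and the difference was -7.09 without intestine.WT.1476 and -4.62 without intestine.WT.1477. Sox9, which both Sertoli and crypt cells use, differed little, at 9.66 and 7.17 CPM in intestine and 14.7 and 14 CPM in testes (-0.76 ± 0.20), and it was not called without either testes library (adjusted p = 0.153 and 0.124). Amh, the fetal and early postnatal Sertoli hormone, was near the detection limit, at 0.193 and 0.538 CPM in intestine and 1.08 and 0.746 CPM in testes (-1.39 ± 0.54, adjusted p = 0.0593). Gata4, a factor of both Sertoli cells and the upper small intestine, was higher in intestine at 211 and 256 CPM in intestine and 18.8 and 18.4 CPM in testes (3.65 ± 0.15), and so was Kitl, the ligand of the Kit receptor, at 98.4 and 84.6 CPM in intestine and 25.7 and 27.9 CPM in testes (1.77 ± 0.13).

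Leydig cell genes of steroid synthesis were higher in testes in 14 of 20 cases, with a median of -6.25, or -5.65 with 4 genes at their bound. Cyp11a1, which cleaves the cholesterol side chain, was at 0.193 and 0.0896 CPM in the intestinal libraries and 75.7 and 56.2 CPM in the testes libraries (log2 difference -8.72 ± 0.36, adjusted p = 2.91e-05), and 1 count remained in intestine without intestine.WT.1476. Cyp17a1, the next cytochrome of the androgen pathway, was at 0.708 and 0.448 CPM in intestine and 181 and 136 CPM in testes (-8.04 ± 0.29), and the difference was -8.68 without intestine.WT.1476. Hsd3b6, the 3-beta-hydroxysteroid dehydrogenase of adult Leydig cells, had 57.3 and 61.7 CPM in testes and 1 count in intestine, a ratio of 1590 with a counting interval of 286 to 63000. Its relative Hsd3b1 had 13 and 18.6 CPM and no intestinal count, at least 143-fold higher. Lhcgr, the receptor of luteinising hormone, was at least 49.9-fold higher at 5.95 and 5.34 CPM. Insl3, a Leydig peptide hormone, was at 0.322 and 0.538 CPM in intestine and 16.8 and 25.5 CPM in testes (-5.66 ± 0.41), and it shares 404 exon bases on the same strand with Jak3. The 5 members higher in intestine are enzymes and carriers of general use. Scp2, sterol carrier protein, was at 768 and 837 CPM in intestine and 18.1 and 16.6 CPM in testes (5.53 ± 0.15), and Por, the reductase that supplies microsomal cytochromes, at 471 and 605 CPM in intestine and 14.9 and 11.8 CPM in testes (5.33 ± 0.23).

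Testis isozymes made up nearly the whole of several pairs in testes and little of them in intestine. Levels within a pair are given as the share of the testis form in the sum of both, per kb of exon. Exon length is that of all annotated exons of a gene merged, which can exceed its main transcript. A long somatic form raises the share of the testis form. Gapdh, for example, had 4.133 kb and Gapdhs 1.61 kb. Counts of pairs over 90% or under 50% depend on these lengths. Of 37 pairs, 36 had a lower share in intestine than in testes in both mice. The share was over 90% in both testes libraries in 19 pairs and under 50% in both in 5, those of Aldoart1, Pabpc2, Eif4g3, Calr3 and Rad21l. Pgk2, the phosphoglycerate kinase of late spermatocytes and spermatids, arose from X-linked Pgk1 by retroposition. Both promoters are shown, because the 2 genes had opposite differences and their starts differ in CG dinucleotides, which the capitals mark. The stretches are again the 150 bases before the start, 5′ to 3′, from RefSeq on GRCm38.p6.
Pgk2, chr17:40208610-40208759 on the minus strand: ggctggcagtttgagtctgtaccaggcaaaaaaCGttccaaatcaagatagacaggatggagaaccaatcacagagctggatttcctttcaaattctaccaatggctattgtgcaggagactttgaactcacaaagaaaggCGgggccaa
Pgk1, chrX:106186950-106187099 on the plus strand: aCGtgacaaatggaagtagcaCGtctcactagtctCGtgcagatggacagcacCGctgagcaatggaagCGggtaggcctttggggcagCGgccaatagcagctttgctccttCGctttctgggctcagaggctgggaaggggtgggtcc
CG stands 2 times in the Pgk2 stretch and 7 times in that of Pgk1, and 4 and 24 times in their whole promoters of 300 bases, where the median over all 32851 promoters is 7. Pgk2 was at 14 and 0.538 CPM in the intestinal libraries and 692 and 711 CPM in the testes libraries (log2 difference -6.56 ± 1.49, adjusted p = 0.014), and the difference was -10.57 without intestine.WT.1476 and -5.63 without intestine.WT.1477 and it was not called without either testes library (adjusted p = 0.127 and 0.127) or with the mouse as a block (adjusted p = 0.0613). Pgk1 was the reverse, at 159.8 and 167 CPM in intestine and 3.65 and 4.26 CPM in testes (5.36 ± 0.14). The Pgk2 share was 99.6% in both testes libraries and 10.8% and 0.442% in intestine.

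Pairs in energy metabolism differed in how far the testis form prevailed in testes. The Ldhc share was 89.9% in both testes libraries and 2.45% and 0.228% in intestine, and its partner Ldha, the general lactate dehydrogenase, was at 2012 and 2300.3 CPM in the intestinal libraries and 581 and 601 CPM in the testes libraries (log2 difference 1.87 ± 0.13, adjusted p = 0.000119). Gapdhs, the glyceraldehyde-3-phosphate dehydrogenase of the sperm tail, was at 35.3 and 5.11 CPM in intestine and 1211 and 1243 CPM in testes (-5.92 ± 1.10), and the difference was -8.15 without intestine.WT.1476 and -5.10 without intestine.WT.1477 and it was not called without either testes library (adjusted p = 0.0853 and 0.0853). Gapdh, often used as a reference gene, was at 1029 and 1452 CPM in intestine and 28.1 and 28.7 CPM in testes (5.45 ± 0.24). The Gapdhs share was 99.1% in both testes libraries against 8.09% and 0.895% in intestine. For Aldoart1, a retroposed aldolase, the share was 33.5% and 33.8% in testes and 0.37% and 0.228% in intestine.

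Most mitochondrial pairs had testes shares near or above 90%. Pdha2, the testis E1 alpha subunit of pyruvate dehydrogenase, had 0.902 and 0 CPM in intestine and 133 and 138 CPM in testes (log2 difference -8.01 ± 0.57, adjusted p = 0.000212), and the difference was -7.20 without intestine.WT.1477 and no count remained in intestine without intestine.WT.1476. Its X-linked partner Pdha1 was at 242 and 218 CPM in intestine and 2.86 and 3.36 CPM in testes (6.20 ± 0.16), and the Pdha2 share was 98.7% and 98.5% in testes and 0.588% and 0% in intestine. Pdha1 shares 603 exon bases on the opposite strand with Map3k15. Cyct, the cytochrome c of sperm, had 39.7 and 40 CPM in testes and 2 counts in intestine, a ratio of 532 with a counting interval of 147 to 4400, and the general Cycs was at 235 and 263 CPM in intestine and 9.98 and 10.2 CPM in testes (4.62 ± 0.13). The Cyct share was 95.4% and 95.3% in testes. Cox8c and Cox7b2 are subunits of cytochrome c oxidase. Cox8c was at 0.322 and 0.269 CPM in intestine and 181 and 201 CPM in testes (-9.29 ± 0.19) against 432 and 444 CPM in intestine and 9.37 and 11.6 CPM in testes for Cox8a (5.38 ± 0.17). Cox7b2 was at 0.258 and 0.0896 CPM in intestine and 69.4 and 75.1 CPM in testes (-8.54 ± 0.26), and 1 count remained in intestine without intestine.WT.1476. Its X-linked partner Cox7b was at 406 and 433 CPM in intestine and 3 and 3.17 CPM in testes (7.08 ± 0.15). The tissues did not overlap in any of these 4 oxidase genes. For the ADP/ATP carrier Slc25a31 the share was lower, 73.1% and 73.5% in testes and 1.89% and 1.38% in intestine, and its partner Slc25a4 was also called higher in testes, at -1.09.

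Ribosomal protein and chaperone copies and a fatty acid-binding pair were unequal in their shares. Rpl10l, the autosomal copy of X-linked Rpl10, was at 0.322 and 0 CPM in the intestinal libraries and 127 and 127 CPM in the testes libraries (log2 difference -9.36 ± 0.41, adjusted p = 3.25e-05), and the difference was -8.58 without intestine.WT.1477 and no count remained in intestine without intestine.WT.1476, while Rpl10 was at 227 and 185 CPM in intestine and 11.9 and 13.7 CPM in testes (4.0 ± 0.17). Rpl39l was at 0.837 and 0.179 CPM in intestine and 140 and 152 CPM in testes (-8.02 ± 0.36), and the difference was -7.42 without intestine.WT.1477 and 2 counts remained in intestine without intestine.WT.1476. X-linked Rpl39 was at 56.8 and 32 CPM in intestine and 2.34 and 3.17 CPM in testes (4.0 ± 0.37), and the difference was 3.27 without intestine.WT.1476. Hspa2, described above, made up 94.4% and 94.9% of its pair with the general chaperone Hspa8 in testes and 1.21% and 0.462% in intestine. The calreticulin copy Calr3 made up 25.6% and 23.5% of its pair with Calr in testes and 0.493% and 0.0193% in intestine. For Hspa1l with Hspa1a, a pair of low level in intestine, the share was 99.7% and 99.6% in testes and 96.5% and 23.1% in intestine. Fabp9, of the sperm acrosome, made up 99.9% of its pair with Fabp2 in both testes libraries, at 8.24 and 0.806 CPM in intestine and 582 and 592 CPM in testes (-6.97 ± 1.14), and the difference was -9.74 without intestine.WT.1476 and -6.14 without intestine.WT.1477 and it was not called without either testes library (adjusted p = 0.0765 and 0.0763). Fabp9 shares 344 exon bases on the same strand with a predicted gene. Fabp2 is the intestinal gene described above, so the shares of this pair follow from the choice of partner. The pair counts among those over 90% in testes. Reads without a unique alignment were not counted. Reads of close copies may thus be missing from both members of a pair, or have been assigned to the wrong one.

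Not every autosomal copy was particular to testes. Cstf2t, the retroposed copy of X-linked Cstf2 in RNA cleavage, was at 45.3 and 43.8 CPM in the intestinal libraries and 43.9 and 44.8 CPM in the testes libraries (0.01 ± 0.10, adjusted p = 0.942), and Cstf2 at 38.4 and 31.1 CPM in intestine and 59.2 and 61.7 CPM in testes (-0.79 ± 0.14). The Cstf2t share was thus lower in testes, 61.6% and 61.1%, than in intestine, 71.9% and 75.3%. Utp14b, a retroposed ribosome factor, had 12.6 and 19.5 CPM in intestine and 23.9 and 25.3 CPM in testes (-0.63 ± 0.23, adjusted p = 0.0505) and lies within the exons of Acsl3 in part, sharing 244 bases on the same strand. Its X-linked partner Utp14a had 8.31 and 4.93 CPM in intestine and 4.36 and 4.93 CPM in testes (0.53 ± 0.30, adjusted p = 0.153). With the mouse as a block, the adjusted p of Utp14b was 0.0475.

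**Figure D4:**
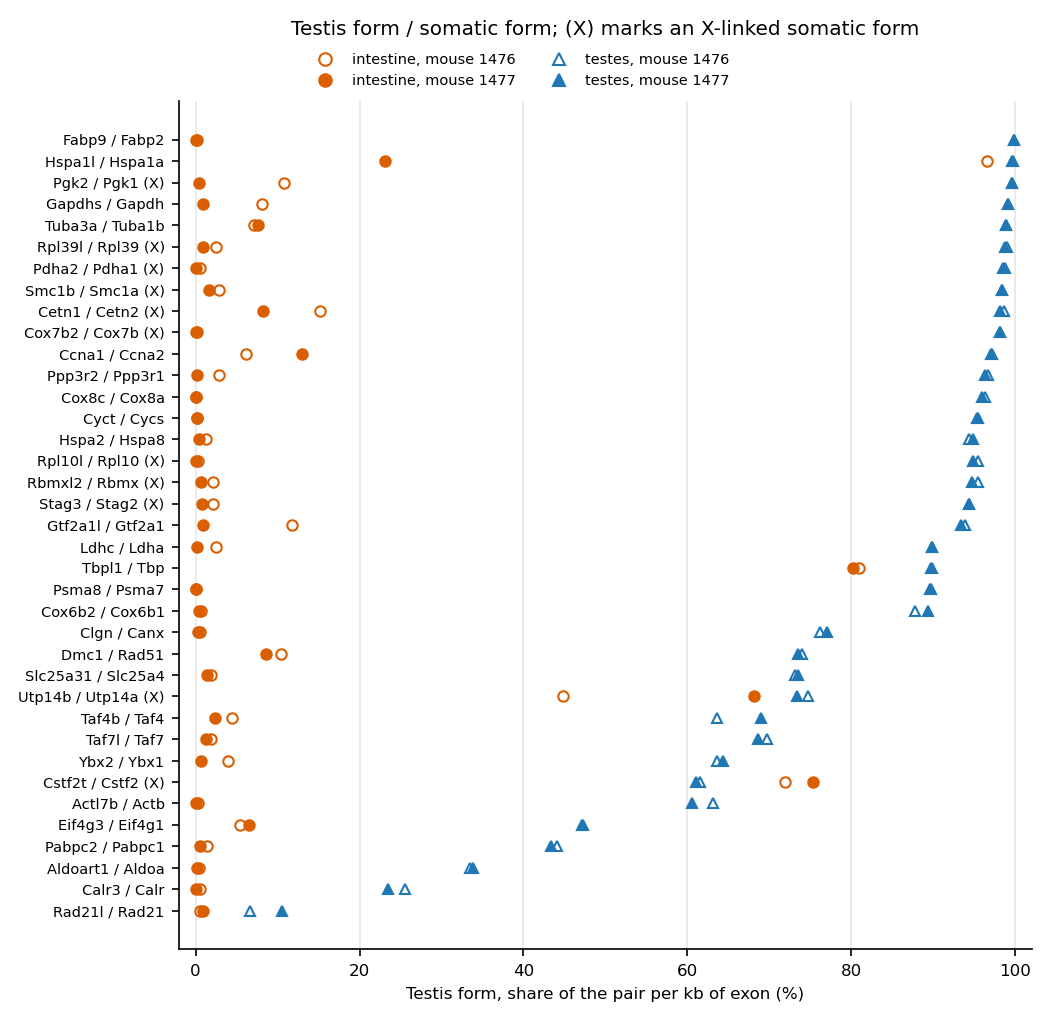
Share of the testis form in each pair, per kb of exon, in the 4 libraries (circles for intestine, triangles for testes, open for mouse WT.1476, filled for mouse WT.1477), sorted by the testes share. Most pairs stand far lower in intestine than in testes, and Cstf2t with Cstf2 is the pair in which the testes share, 61.6% and 61.1%, is the lower.

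The direction of the median over X-linked genes depended on the level at which genes were taken. The level is a mean over both tissues, so a gene could pass through the tissue in which it was high. Among protein-coding genes with a mean of at least 10 CPM over the 4 libraries, 261 X-linked genes had a median difference of 2.02, and 67.0% of them were called higher in intestine and 29.5% higher in testes, against a median of 0.52 and 51.8% higher in intestine over all 10195 such genes. The autosomal medians at this level lay between 0.13 and 0.95. At a mean of at least 1 CPM, 522 X-linked genes had a median of -0.32, with 43.5% higher in intestine and 47.9% higher in testes, against 0.10, 44.9% and 43.1% over all 14406 such genes. Without a level, the 610 tested X-linked protein-coding genes had a median of -1.09, with quartiles of -5.92 and 2.19, against -0.17 over 15776 genes. Of these, 37.9% were called higher in intestine, Pgk1, Pdha1, Cox7b and Rpl10 among them, and 52.3% higher in testes, Akap4 among them. X-linked genes took 2.39% and 2.32% of the counts in intestine and 1.31% and 1.34% in testes. The X median at 10 CPM moved with the scaling, from 2.02 with TMM to 1.23 with library size alone, while the median of all genes moved from 0.52 to -0.27. Without intestine.WT.1476 the medians were 1.75 and 0.27.

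**Figure D5:**
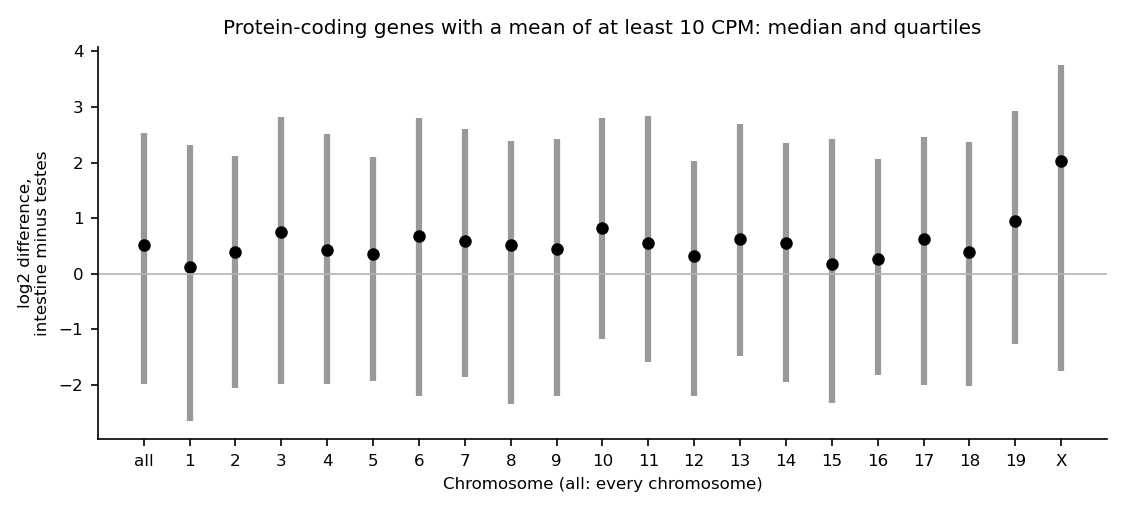
Median (point) and quartiles (bar) of the log2 difference, intestine minus testes, of protein-coding genes with a mean of at least 10 CPM, over all chromosomes and for each. At this level the X chromosome stands at 2.02 and the autosomes between 0.13 and 0.95. At a mean of at least 1 CPM, which is not drawn, the X median was -0.32.

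Genes that write, erase or read methylation of H3K9 and H3K36, the lysines mutated elsewhere in the series, were divided between the tissues, with 14 of 28 higher in intestine (9 without testes.WT.1477) and 11 higher in testes. Of all tested genes, 38.1% and 49.3% were called in these directions, and the split of the list was not tested against them. The list median was 0.37. With library size alone 6 and 13 were called. Kdm4d, a demethylase of H3K9, was the extreme, with 1 count in intestine and 85.2 and 89.7 CPM in testes, a ratio of 2340 with a counting interval of 420 to 92400. Nsd2, an H3K36 dimethyltransferase, was at 51.7 and 44.3 CPM in intestine and 202 and 198 CPM in testes (log2 difference -2.06 ± 0.13, adjusted p = 8.43e-05). Suv39h2, the H3K9 methyltransferase of male germ cells, was at 3.48 and 1.43 CPM in intestine and 27.1 and 21.8 CPM in testes (-3.25 ± 0.38), and the difference was -4.32 without intestine.WT.1476, and it shares 357 exon bases on the opposite strand with Dclre1c. Kdm2a, an H3K36 demethylase, was higher in intestine at 209.9 and 244 CPM in intestine and 85.3 and 91 CPM in testes (1.36 ± 0.13). The 2 genes of the variant histone H3.3 were unequal: H3f3a was at 452 and 490 CPM in intestine and 45.2 and 45.8 CPM in testes (3.37 ± 0.13) and H3f3b at 396 and 368 CPM in intestine and 286 and 304 CPM in testes (0.37 ± 0.12), and it was not called without intestine.WT.1476 or testes.WT.1476 or testes.WT.1477 (adjusted p = 0.139 and 0.221 and 0.143) or with the mouse as a block (adjusted p = 0.0708). The direction of H3f3b turned with library size alone, to -0.41, and with upper-quartile scaling, to -0.06.

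Of 14 DNA methylation genes, 8 were higher in intestine and 5 in testes, with a median of 1.29. The background shares were 38.1% and 49.3%. Dnmt3l, the cofactor of de novo methylation in the germ line, had 7.82 and 6.94 CPM in testes and 1 count in intestine, a ratio of 196 with a counting interval of 34.9 to 7750. Uhrf1, which guides maintenance methylation, was at 13.1 and 5.02 CPM in intestine and 62.3 and 64.2 CPM in testes (log2 difference -2.76 ± 0.42, adjusted p = 0.00295), and the difference was -3.90 without intestine.WT.1476. Dnmt1, the maintenance enzyme, was at 29.9 and 10.6 CPM in intestine and 45.5 and 43.7 CPM in testes (-1.12 ± 0.49, adjusted p = 0.0902), with mouse WT.1476 the higher intestine. Its difference was -2.32 without intestine.WT.1476 and -0.56 without intestine.WT.1477. Tet3, a 5-methylcytosine dioxygenase, was higher in intestine at 122 and 114 CPM in intestine and 7.78 and 7.73 CPM in testes (3.92 ± 0.11).

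Mitosis genes were mostly higher in testes, against a background of 49.3%. Of 20 mitosis genes, 14 were higher in testes (8 without either testes library) and 6 were not called, with a median of -2.20, or -3.53 without intestine.WT.1476. Cenpf, a kinetochore protein, was at 16.2 and 4.84 CPM in the intestinal libraries and 196 and 200.2 CPM in the testes libraries (log2 difference -4.20 ± 0.60, adjusted p = 0.00313), and the difference was -5.60 without intestine.WT.1476 and -3.59 without intestine.WT.1477 and it was not called without either testes library (adjusted p = 0.0555 and 0.0556). Mki67, the proliferation marker, was at 111 and 35.7 CPM in intestine and 63.1 and 61.2 CPM in testes (0.25 ± 0.56, adjusted p = 0.693), and the testes lay between the 2 intestines. Top2a, topoisomerase II alpha, was at 76.6 and 18.4 CPM in intestine and 200.4 and 190.3 CPM in testes (-2.03 ± 0.71, adjusted p = 0.0515). Its difference was -3.65 without intestine.WT.1476 and -1.33 without intestine.WT.1477. Of 20 DNA replication genes, 8 were higher in testes (14 without intestine.WT.1476), 2 higher in intestine and 10 not called. Mcm6, a subunit of the replicative helicase, was one of those 2, at 48.9 and 40.4 CPM in intestine and 19.4 and 20.6 CPM in testes (1.16 ± 0.14).

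Cytosolic ribosomal protein genes were higher in intestine in 26 of 31 cases (17 without testes.WT.1476) and not called in 5, with a median of 1.44, or 0.75 without intestine.WT.1476. With library size alone 9 were called. Rps3 was at 416 and 216 CPM in the intestinal libraries and 49.3 and 51.2 CPM in the testes libraries (log2 difference 2.65 ± 0.34, adjusted p = 0.00133), and the difference was 1.86 without intestine.WT.1476. Rpl4 was at 623 and 372 CPM in intestine and 167 and 173 CPM in testes (1.55 ± 0.27), and the difference was 0.89 without intestine.WT.1476. Rplp0 was not called, at 302 and 176 CPM in intestine and 239 and 261 CPM in testes (-0.07 ± 0.27, adjusted p = 0.83). In all 3 genes mouse WT.1476 had the higher intestinal value. Nuclear genes of the respiratory chain were higher in intestine in 25 of 25 cases, with a median of 2.87. Atp5b, the ATP synthase beta subunit, was at 3166 and 3028 CPM in intestine and 399 and 403 CPM in testes (2.95 ± 0.11), and Atp5a1, the alpha subunit, at 2492 and 2326 CPM in intestine and 187 and 192 CPM in testes (3.67 ± 0.12).

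All 20 interferon-stimulated genes were higher in intestine, with a median of 5.34. Irf7, the master regulator of type I interferon, was at 269.7 and 280.2 CPM in the intestinal libraries and 1.17 and 1.34 CPM in the testes libraries (log2 difference 7.76 ± 0.15, adjusted p = 1.64e-05), and Ifit1, an RNA-binding effector, at 174 and 172 CPM in intestine and 0.141 and 0.187 CPM in testes (9.97 ± 0.17). The 2 mice were nearly equal in both genes. Immediate early genes, which respond within minutes to growth factors and to tissue dissociation, were higher in intestine in 13 of 16 tested members and higher in testes in 2, with a median of 4.69. Fos was at 338 and 440.5 CPM in intestine and 1.08 and 0.635 CPM in testes (8.84 ± 0.34). The exceptions were Klf2, at 0.58 and 0.0896 CPM in intestine and 16 and 15.2 CPM in testes (-5.37 ± 0.45), and the difference was -4.72 without intestine.WT.1477 and 1 count remained in intestine without intestine.WT.1476, and Nr4a1, at 1.74 and 0.448 CPM in intestine and 36.8 and 35.5 CPM in testes (-4.93 ± 0.41), and the difference was -6.55 without intestine.WT.1476.

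The same tissue difference was measured in the 2 H3K9M and the 2 H3K36M mice of the series. Of the wildtype calls that could be tested there, 15927 of 16086 (99.0%) had the same direction in H3K9M mice and 14101 of 15233 (92.6%) in H3K36M mice. The spermatid chromatin list, at -5.78 in wildtype and -9.46 without intestine.WT.1476, had medians of -8.86 and -8.72 in the mutants, and the flagellum list, at -6.85 and -10.06, had -9.74 and -9.03. The testes of H3K36M mice differed from wildtype testes too, in both directions. Without TMM scaling, Prm1 was at 4571 and 6724 CPM there against 2362 and 2535 CPM in wildtype. Dnah8 was at 748 and 151.8 CPM against 2717 and 2775 CPM. Tests of the difference itself over 12 libraries called 25 of 20253 genes (0.123%) for H3K9M and 4552 (22.5%) for H3K36M. The median of the goblet list was 9.70 in wildtype, 9.05 in H3K9M and 5.38 in H3K36M mice, and that of X-linked genes with a mean of at least 10 CPM 2.02, 1.88 and 0.39.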

How the data were processed

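Poly(A) RNA was sequenced after SMARTer amplification, per the labels' protocols. The authors deposited raw read counts per gene for each library, and the submitters' processing notes list STAR, HTSeq and the build mm9. Their versions, the annotation and the use of strand are not given in the sources used here. The 5 HTSeq entries that name no gene were left out. Reads in no feature were 12.7% and 14.3% of all counted entries in intestine and 25.9% and 26.0% in testes. Reads without a unique alignment were 23.8% and 27.3% in intestine and 15.3% and 15.7% in testes. GENCODE M21 gave symbols for 32897 of 37620 IDs.

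Intestine and testes of 2 wildtype mice were compared with edgeR 4.0.16 in R 4.3.3 (filterByExpr, TMM scaling, robust quasi-likelihood test, 2 residual degrees of freedom, Benjamini-Hochberg adjustment over 18754 genes). Gene counts of 15471650 to 20577418 per library set the counting error, and intervals and floors cover counting error only. The interval of a ratio is exact at the 95% level. The floor is 3 counts over both libraries of a tissue. The mice pair the libraries by the labels. The deviations of the mice correlated at r = 0.03 between tissues over genes, and the mouse as a block was an alternative. Other alternatives were DESeq2 1.42.0, limma-voom (limma 3.58.1), other scalings, filters and thresholds, all 12 intestine and testes libraries, each library left out, and the mutant mice alone. Counts of 18754 genes were also simulated with no tissue difference except in 200 changed genes. Of these, 37% of 2-fold and 90% of 4-fold changes were recovered, and 26 of 153 calls (17%) were false. In the data 87.4% of genes were called, so these shares do not carry over to the calls above.

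The genes and the 43 lists were chosen with earlier results of these data known. The rule for named genes took the 12 largest differences each way among called genes with at least 10 CPM in both libraries of the higher tissue, the 3 called members of each list with the highest CPM, up to 2 called members against the list's tissue, the most abundant member not called, both members of 38 isozyme pairs and the 10 most abundant genes of each tissue. It took 272 genes, and the text names part of these. Other members named were chosen after their values were seen. Promoters came from RefSeq on GRCm38.p6 and were matched by symbol to 12363 of 15776 protein-coding genes tested (78.4%).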

Additional observations from a re-analysis of the deposited data

Results flagged for a closer look

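The tissue difference of 31 genes named above differed between wildtype and H3K36M mice in the interaction test over 12 libraries (edgeR, adjusted over 20253 genes, of which 22.5% were called). The share of the named genes that was called was no higher than this 22.5%, so being called is no trait particular to them. Values are the log2 difference of intestine over testes in wildtype minus that in H3K36M. Among intestinal epithelial and immune genes it was 4.97 for Muc2 (adjusted p = 0.000192), 3.30 for Fcgbp (adjusted p = 0.00261), 2.48 for Anpep, 2.43 for Pigr, 2.29 for Dclk1, 3.16 for Gzma and 1.88 for Fos. It was -0.94 for Chga and -2.26 for Lgr5. Muc2, the gel-forming mucin, had a tissue difference of 10.03 in wildtype and 4.75 in H3K36M. Among genes of testis lists it was 4.32 for Kitl (adjusted p = 0.000121), 2.62 for Ace, 2.24 for Hist1h2bc, 1.51 for Sox9, 1.31 for Gata4, 1.26 for Crem and -1.69 for Por. Kitl, the ligand of the Kit receptor, had a tissue difference of 1.77 in wildtype and -2.86 in H3K36M, so its direction differed. The value for Pbp2 was -8.72, a fitted value that depends on the prior count, since Pbp2 had no intestinal count in wildtype.

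Stromal and abundant genes gave 1.80 for Mylk, 1.54 for Vim and 1.61 for Lars2. Members of the isozyme pairs gave 2.92 for Gapdhs, 1.76 for Cycs, 0.98 for Cox8a, 1.08 for Cox7b, 0.92 for Rpl10, 1.47 for Rpl39, -1 for Ldha, -1.48 for Cstf2t and -3.02 for Utp14b. The wildtype difference of Gapdhs was -5.92, but -8.15 without intestine.WT.1476, and that of Rpl39 4.0 and 3.27. Of the chromatin genes, H3f3b gave -0.86 and Tet3 1.09. All 31 had an adjusted p between 0.000121 and 0.049. Groups held 2 libraries a tissue, too few for a test of single outlying samples.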

How the results depend on the processing

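Of the 16392 calls, DESeq2 kept 15875, limma-voom 16194, RLE scaling 15981, upper-quartile scaling 15497 and library size alone 14758 in the same direction, with 139 in the opposite one under library size alone. With the mouse as a replicate block 15504 genes were called, 15483 of them shared, and in the 12-library block 16079. Counts of all calls ranged from 13342 to 17129 when 1 library was left out. Where a count or median moved, the cause was not tested. Without testes.WT.1476 or testes.WT.1477, calls could end while the difference hardly changed. That of Prm1 was -5.89, then -5.96 or -5.83, and that of Ldhc -7.55, then -7.58 or -7.53. Leaving out 1 library gave counts higher in intestine of 2 to 4 for B and plasma cells, 4 to 9 for macrophage and MHC class II genes, 9 to 15 for H3K9 and H3K36 genes, 17 to 31 for ribosomal proteins and 1 to 5 for the large intestine. It gave counts higher in testes of 5 to 11 for crypt stem cells, 7 to 16 for spermatid chromatin, 15 to 34 for flagellum, 8 to 20 for mitosis, 6 to 14 for DNA replication and 2 to 4 for red blood cells. The counts that follow are each toward the tissue with more calls of that list in wildtype. In H3K36M mice they were 4 for crypt stem cells, 5 for macrophages, 6 for fibroblasts, 5 for H3K9 and H3K36 and 4 for DNA methylation. They were 7 for mitosis, 4 for DNA replication, 1 for epididymis, 1 for red blood cells and 1 for the large intestine. H3K9M mice gave 15 for DNA replication. Without a filter on low counts 2 B cell genes and 1 large intestine gene were called higher in intestine, and 10 spermatid chromatin genes higher in testes. With library size alone 6 H3K9 and H3K36 and 9 ribosomal genes were called higher in intestine. At an adjusted p of 0.01 the crypt count was 5, and at 2-fold or more the H3K9 and H3K36 count was 8. Genes with at least 1 count averaged 19723 in intestine and 26140 in testes, against 12161.5 and 16528 at 1 CPM. The X median of 2.02 was 1.81 with RLE, 1.59 with upper-quartile scaling, 1.23 with library size alone, 1.88 in H3K9M and 0.39 in H3K36M mice, and 1.75 to 2.07 with 1 library left out. Over all chromosomes 0.52 became 0.32, 0.09, -0.27, 0.31 and 0.22 in the same order, and 0.27 to 0.54.

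Signs turned for genes near 0 and for genes that differed in the mutants. With library size alone the differences were -0.48 for Slc2a5, -0.50 for Mki67, -0.25 for Utp14a and -0.41 for H3f3b, and with upper-quartile scaling -0.12 for Slc2a5, -0.18 for Mki67 and -0.06 for H3f3b. In H3K36M mice they were -1.34 for Dclk1, -0.17 for Ace, -2.86 for Kitl, 2.08 for Utp14b and -0.14 for Utp14a, and in H3K9M mice -1.30 for Mki67 and -0.38 for Utp14a. With 1 library left out, Cybrd1 ranged from -0.20 (without intestine.WT.1477) to 3.29, Rplp0 from -0.75 to 0.29 (without intestine.WT.1477), Mki67 from -1.04 (without intestine.WT.1476) to 0.86, Utp14a from -0.16 (without intestine.WT.1476) to 0.85 and Cstf2t from -0.26 (without intestine.WT.1476) to 0.05. Cstf2t, at 0.01, was -0.20 with DESeq2 and with RLE, -0.78 with library size alone, -0.43 with upper-quartile scaling, -0.05 without a filter, -0.01 with the stricter filter or without testes.WT.1476, and 0 over 12 libraries with and without the block. Of the genes named, the 4-library block ended the call of 11 and made 1 call, and the values stand beside these genes. With 2 libraries a tissue, a fit without 1 library assumes that the lone library varies like the others. The lowest counts limit folds, and 1606 tested genes had no count in 1 tissue.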
